A study of Rattus norvegicus with 10 samples.

Results

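The comparison sets 2 arrays of rat lens explants taken after 24 hr at 100 ng/mL fibroblast growth factor 2 (FGF2) against 2 arrays of explants taken at 0 hr. Its members were chosen by the titles of the samples alone, and they are 4 of the 10 arrays of the series. A lens explant is a piece of lens capsule with its sheet of epithelial cells attached. All explants came from pups 3 days old, were kept at 6 per assay, and spent a night at 5 ng/mL FGF2. The 0 hr explants were collected after that night, and the 24 hr explants then spent 24 hr at the higher dose. The other 6 arrays, 2 each after 2, 4, and 12 hr at the higher dose, entered the fit and are compared here only where stated. Explants left at 5 ng/mL for 24 hr were not analysed here, and the higher dose cannot be told apart from the added time in culture. The methods call the 2 arrays of a time point biological duplicates. By the array names, 12 and 24 hr belong to 1 run and 0 hr does not, so between 0 and 24 hr the run cannot be told apart from time.

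The lens epithelium is a single layer on the front of the lens whose cells, near the lens equator, stop dividing, elongate, and become fiber cells filled with crystallins. FGF is the best known inducer of this step, and its dose decides the response in explants: low doses favor proliferation and high doses favor fiber differentiation. FGF receptors signal through the MAP kinases ERK1 and ERK2, which induce Ets and Egr transcription factors together with inhibitors of the same pathway, the Sprouty proteins and dual-specificity phosphatases.

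Values are RMA intensities, a brightness per probe set made comparable between arrays. They were taken to log2 and tested with limma over 31042 probe sets. Up- and down-regulated below mean an adjusted p under 0.05, by the method of Benjamini and Hochberg. Median intensities were 100.3 and 100 on the 0 hr arrays and 99 and 98.1 on the 24 hr arrays. Replicates differed by an SD of 0.161 at 0 hr and 0.213 at 24 hr on the log2 scale. The log2 ratio of the 5' to the 3' control probe sets for beta-actin, a measure of RNA integrity and of amplification from the 3' end, was -1.122 and -1.215 at 0 hr, -1.297 and -1.430 at 12 hr, and -1.747 and -1.880 at 24 hr. It thus moved with the group. That of Gapdh also fell without overlap, by less, and lay at -0.054 and 0.001 at 0 hr and at -0.128 and -0.139 at 24 hr. Where this ratio, added to the fit, moved a count of calls in a gene group by more than 1.5 times and to or from more than 3 genes, both counts are given; its part in the results was not tested. The defining genes of lens epithelium were present at 0 hr, among them Pax6 at 9866 and 9836, Cdh1 at 10484 and 9845, and Foxe3 at 917.9 and 907.2.

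The response at 24 hr was broad. Of the 31042 probe sets, 2885 (9.29%) were up-regulated and 3379 (10.9%) down-regulated, together 20.2%. They stand for 1916 and 2051 genes, with 14 genes called in both directions at different probe sets. Changes of at least 4-fold were more often rises, at 177 probe sets against 109, and changes of at least 16-fold were seen at 14 against 4. The median rise was 0.617 and the median fall -0.666 on the log2 scale. With any 1 of the 4 arrays left out in turn, 1165 rises and 1299 falls were called in every such fit. Where a gene is described below by its brightest probe set, the matching shares over 14217 genes are 12.2% higher and 12.4% lower, with a median log2 fold change of 0.033. Both 24 hr arrays lay above both 0 hr arrays in 38.7% of these genes and below them in 31.2% (34.9% and 29.9% of probe sets), so arrays that do not overlap are common. In bulk tissue, fewer cells of a type and less RNA per cell cannot be told apart. The gene lists described below, and their members, were chosen with earlier results of these data known. Their shares are thus no independent evidence that a group of genes moved.

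The rise of Gria2 was the largest. Gria2, which encodes a subunit of AMPA glutamate receptors, read 49.6 and 42.2 at 0 hr and 4009 and 4325 at 24 hr (log2 fold change 6.51, SE 0.54, adjusted p = 0.00014). Scn3b, an auxiliary subunit of voltage-gated sodium channels, read 30.4 and 32.8 at 0 hr and 3232 and 2054 at 24 hr (log2 fold change 6.35, SE 0.34, adjusted p = 2.2e-05). The groups lay far apart for both, and a further probe set of each was also up-regulated (5.16 for Gria2 and 5.21 for Scn3b). That of Scn3b was brighter, at 122.4 and 114.8 at 0 hr. No call of detection above background was used here, so where a gene starts or ends at low intensity, as these and Cdhr1 do, the fold change is that of the measured intensities. Chga, a protein of secretory granules, read 30.8 and 28.1 at 0 hr and 614.6 and 381.9 at 24 hr (log2 fold change 4.04, SE 0.25, adjusted p = 4.4e-05). Npy, which encodes the peptide neuropeptide Y, was already expressed at 0 hr and read 1292 and 1734 at 0 hr and 17784 and 16563 at 24 hr (log2 fold change 3.52, SE 0.16, adjusted p = 1.2e-05). The endoplasmic reticulum protein gene Rtn1 read 340.8 and 371.0 at 0 hr and 4470.4 and 3923 at 24 hr (log2 fold change 3.56).

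Other leading rises encode structural and adhesion proteins. Krt12, the keratin best known from the corneal epithelium, read 31.7 and 46.7 at 0 hr and 746.3 and 1447 at 24 hr (log2 fold change 4.76, SE 0.44, adjusted p = 0.00021), with the 24 hr arrays further apart than the 0 hr arrays. Fbn2, which encodes fibrillin-2 of extracellular microfibrils, read 93.4 and 84.4 at 0 hr and 1973 and 2092 at 24 hr (log2 fold change 4.52, SE 0.19, adjusted p = 1.2e-05), and its replicates lay close together. The protocadherin gene Pcdh10 rose by 4.50, the desmosomal cadherin gene Dsg2 by 4.11, and the collagen gene Col26a1 by 3.60. Among signaling genes, Fst, whose product follistatin binds activin, read 35.0 and 50.6 at 0 hr and 551.2 and 1262 at 24 hr (log2 fold change 4.31, SE 0.40, adjusted p = 0.00022). The peptide ligand gene Apln rose by 3.79, Ramp2, a partner of the adrenomedullin receptor, by 3.64, and the homeobox gene Msx1 by 3.49. Tent5a, a poly(A) polymerase gene, rose by 3.71 at its brightest probe set and by 1.55 at another, while a further one gave 0.20 and was not called.

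The largest fall was that of Igfbp5. Igfbp5, which binds insulin-like growth factors outside the cell, read 3356 and 2975 at 0 hr and 71.9 and 94.3 at 24 hr (log2 fold change -5.26, SE 0.40, adjusted p = 8.6e-05). Of its 5 probe sets 3 were down-regulated. Cdhr1, a cadherin-related gene known from photoreceptors, read 650.0 and 497.5 at 0 hr and 15.8 and 16.2 at 24 hr (log2 fold change -5.15, SE 0.14, adjusted p = 3.1e-06). Olfm3, which encodes a secreted olfactomedin protein, read 1085 and 1244 at 0 hr and 29.6 and 55.2 at 24 hr (log2 fold change -4.85, SE 0.34, adjusted p = 6.3e-05). The selenium carrier gene Selenop read 1206 and 1148 at 0 hr and 93.0 and 70.4 at 24 hr (log2 fold change -3.86), with a second, dim probe set not called.

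The 15 largest falls also included enzyme, transporter, and interferon-inducible genes. Pdk4, a kinase that restrains pyruvate dehydrogenase, read 1834 and 1573 at 0 hr and 178.0 and 106.4 at 24 hr (log2 fold change -3.63, SE 0.31, adjusted p = 0.00016). Slc7a3, a transporter of cationic amino acids, read 933.3 and 1037 at 0 hr and 110.4 and 91.3 at 24 hr (log2 fold change -3.29, SE 0.24, adjusted p = 7.9e-05). Inhba, which encodes the subunit of activin A, read 967.2 and 1007 at 0 hr and 117.7 and 144.3 at 24 hr (log2 fold change -2.92, SE 0.20, adjusted p = 5.9e-05), opposite in direction to the activin antagonist Fst. The interferon-inducible genes Ifi27l2b and Mx1 had log2 fold changes of -3.40 and -2.99. Mx1 was the only 1 of these 30 genes to lose its call when an array was left out, at an adjusted p of 0.063 without 0 hr replicate 1. Fgl2, Adgra1, Tmem176b, Kcnab1, Olfml2a, and the chemokine gene Ccl2 had log2 fold changes between -3.09 and -2.88.

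**Figure D1:**
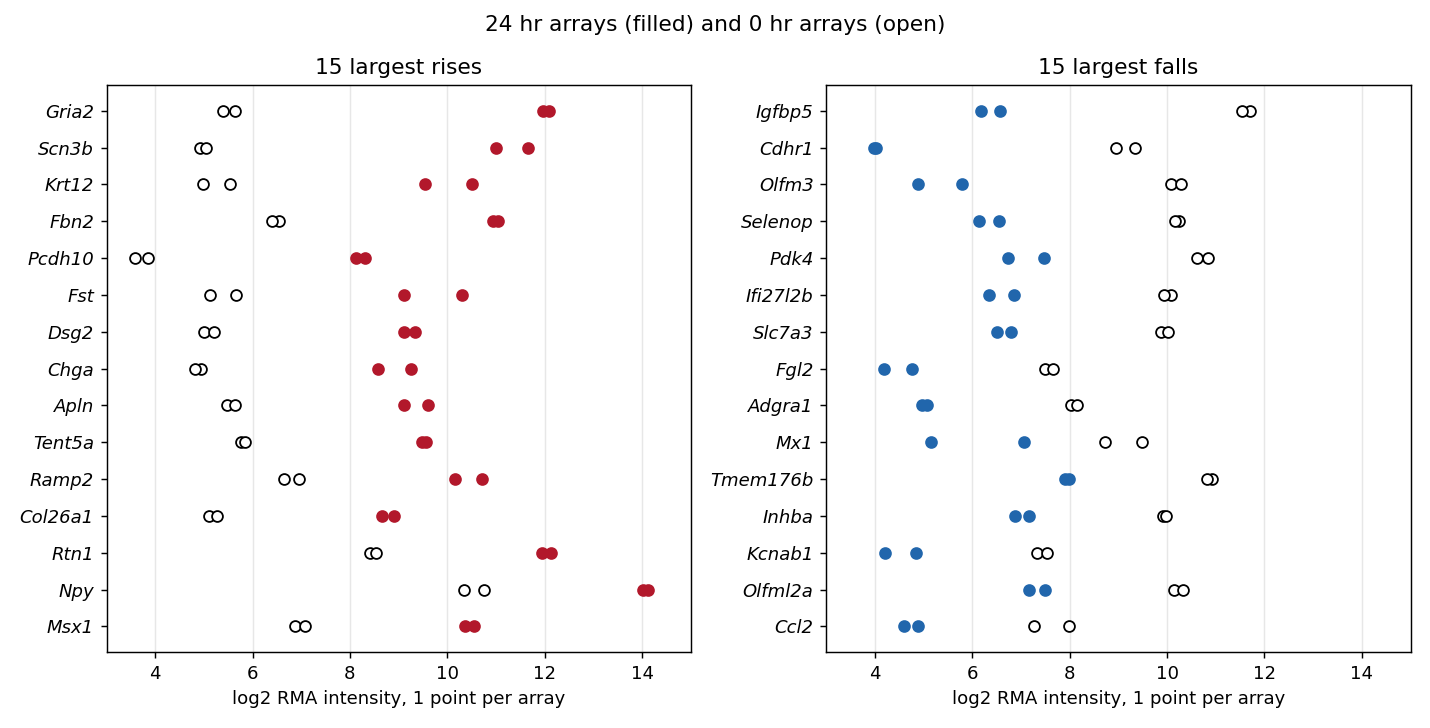
Intensity (log2 scale) of the 15 genes with the largest rises and the 15 with the largest falls, 1 point per array, open for 0 hr and filled for 24 hr. The groups do not overlap in any of the 30 genes, as the rule for naming them required, and Gria2 and Scn3b show the widest gaps among the rises.

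Between 12 and 24 hr, within 1 run of arrays, 689 probe sets (2.22%) were higher and 659 (2.12%) lower, together 4.34%, or 5.91% of genes at their brightest probe set. Of the 30 genes above, 8 differed between these times. Scn3b went on rising after 12 hr, when it read 557.7 and 738.4, by 2.01 on the log2 scale (adjusted p = 0.015). Slc7a3 fell after 12 hr, when it read 621.6 and 804.6, by a difference of -2.82 (adjusted p = 0.0013). Mx1 had stood above its 0 hr values at 12 hr, at 886.6 and 1077, and then changed by -3.83 (adjusted p = 0.01).

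The leading rises from 12 to 24 hr were those of Sorbs2, an adaptor of the actin cytoskeleton, at 2.48, the ubiquitin ligase gene Rnf128 at 2.39, the neuronal adhesion gene Nrcam at 2.22, Pamr1 at 2.22, and the brighter probe set of Scn3b at 2.06. Sorbs2 read 311.1 and 413.8 at 0 hr, 125.8 and 100.0 at 12 hr, and 723.1 and 538.1 at 24 hr. Its rise thus started from below 0 hr, and its log2 fold change at 24 hr against 0 hr was 0.80. The probe set of Nrcam read 64.9 and 65.9 at 0 hr, 82.9 and 108.5 at 12 hr, and 517.2 and 376.9 at 24 hr. It was thus highest at 24 hr on both arrays. The leading falls were those of Mx1, of Sostdc1 (-3.15), an antagonist of BMP and Wnt signals, of the cytokine gene Il18 (-2.91), of the transporter gene Slc22a4 (-2.84), and of Slc7a3. Il18 read 108.2 and 78.9 at 0 hr, 1130.3 and 958.4 at 12 hr, and 140.9 and 135.3 at 24 hr, so that it was highest at 12 hr among these 3 times.

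**Figure D2:**
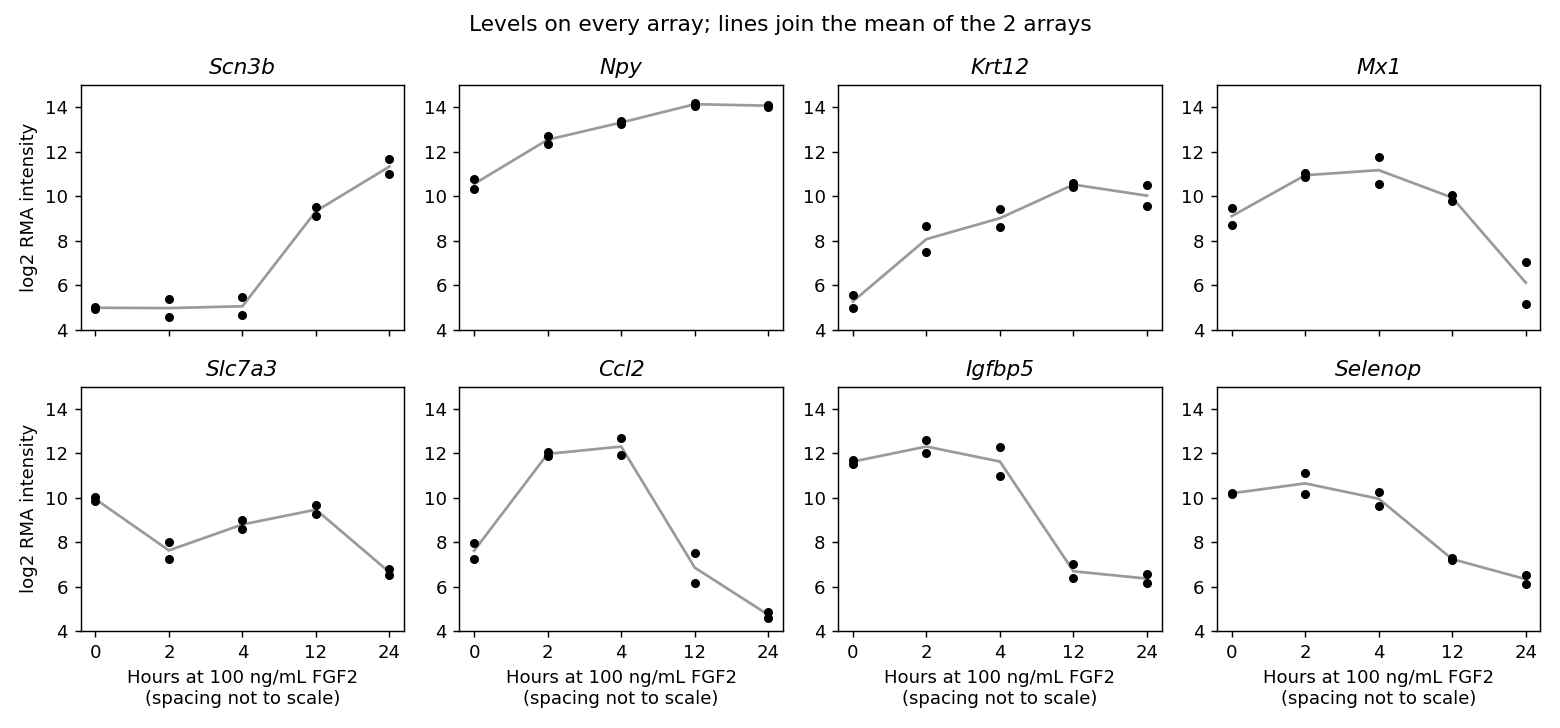
Intensity (log2 scale) of 8 of the leading genes on each of the 10 arrays by hours at 100 ng/mL FGF2, 1 point per array, with lines through the mean of the 2 arrays. Igfbp5 and Selenop lie far lower at 12 and 24 hr than at 0 hr, Mx1 and Slc7a3 lie lower at 24 than at 12 hr, and Scn3b is highest at 24 hr.

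Crystallins, the main soluble proteins of the lens, did not move as 1 group. Of 14 crystallin genes measured, 1 (7.14%) was up-regulated and 1 (7.14%) down-regulated, beside 12.2% and 12.4% of all genes. The median log2 fold change was -0.156. Crygn, the gamma-N crystallin, read 1351 and 1496 at 0 hr and 4174 and 4306 at 24 hr (log2 fold change 1.58, SE 0.29, adjusted p = 0.0056). Crygd read 6089 and 6665 at 0 hr and 4377 and 3412 at 24 hr (log2 fold change -0.72, SE 0.15, adjusted p = 0.0099), a call lost without 0 hr replicate 2 (adjusted p = 0.076) and without 24 hr replicate 2 (adjusted p = 0.074). Among the gamma-crystallins, Crygd, Cryga, and Crygb are closely similar copies, so their probe sets may share signal.

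The abundant alpha-crystallin genes were at the top of the range of the arrays already at 0 hr. Cryaa read 22515 and 22644 at 0 hr and 24954 and 24383 at 24 hr, where the brightest probe set of the same arrays read 23382 and 22762 at 0 hr and 24954 and 24383 at 24 hr, and Cryab read 18833 and 18458 at 0 hr and 18302 and 18993 at 24 hr. Their log2 fold changes were 0.13 (adjusted p = 0.37) and 0.00, and whether brightness near the top of the range limited them was not tested. Among the beta-crystallins, Crybb1 read 1348 and 1276 at 0 hr and 3185 and 2144 at 24 hr (log2 fold change 0.99, SE 0.38, adjusted p = 0.11) and Crybb3 read 8339.9 and 8341 at 0 hr and 11409 and 9839 at 24 hr (log2 fold change 0.35, SE 0.11, adjusted p = 0.0502), neither of which passed. Cryga, Crygb, Cryba1, Cryba2, Cryba4, and Crygs had log2 fold changes from -1.70 to -0.31 and did not pass, and the 2 arrays of 12 hr differed widely for Cryga, at 726.5 and 90.3. With the beta-actin ratio in the fit 4 crystallin genes were lower in place of 1. Without the 2 and 4 hr arrays 4 were higher and 3 lower, and on the arrays of 0 and 24 hr alone 3 were higher and 6 lower.

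Genes for the membrane, cytoskeleton, and maturation of fiber cells were mostly higher where they changed. Of 23 measured, 11 (47.8%) were up-regulated and 1 down-regulated (Vim, -0.48), with a median of 0.243. Epha2, the Eph receptor needed for ordered fiber cells, read 700.7 and 646.3 at 0 hr and 3928 and 3383 at 24 hr (log2 fold change 2.44, SE 0.14, adjusted p = 2.7e-05). Hopx, a small homeodomain protein, read 46.5 and 74.1 at 0 hr and 770.4 and 512.1 at 24 hr (log2 fold change 3.42, SE 0.25, adjusted p = 7.3e-05). The fatty acid binding protein gene Fabp5 read 1171 and 1285 at 0 hr and 3858 and 3623 at 24 hr (log2 fold change 1.61, SE 0.12, adjusted p = 8.5e-05), and Cap2, which acts on actin filaments, read 282.8 and 271.3 at 0 hr and 1037 and 831.0 at 24 hr (log2 fold change 1.74, SE 0.12, adjusted p = 5.9e-05). The RNA-binding protein genes Caprin2 and Rbm24 rose by 1.09 and 1.06. These 6 were called in every fit that left out 1 of the 4 arrays.

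The other rises of this group were smaller and depended on single arrays. Grifin, a galectin-like lens protein, read 9055 and 9261 at 0 hr and 14927 and 14187 at 24 hr (log2 fold change 0.67), Prx, a scaffold of fiber membranes, changed by 0.76, Cdh2 by 0.43, Hsf4, the heat shock factor of the lens, by 0.43, and the RNA granule gene Tdrd7 by 0.29. Each lost its call without either 0 hr array, at adjusted p up to 0.071, 0.11, 0.064, 0.062, and 0.17 with 1 array left out. Under the beta-actin ratio as a covariate 7 were higher and 3 lower. The water channel gene Mip, a defining fiber gene, read 319.7 and 390.2 at 0 hr and 353.1 and 399.6 at 24 hr (log2 fold change 0.09, SE 0.42, adjusted p = 0.92), after 164.8 and 52.8 at 12 hr. The bead filament gene Bfsp2 read 3597 and 3799 at 0 hr and 3029 and 2970.1 at 24 hr, after 1680.5 and 1526 at 12 hr, and the ankyrin gene Ank2 had a like course. None of the 3 was called at 24 hr against 0 hr, while all 3 were higher at 24 than at 12 hr (log2 differences 2.01, 0.91, and 1.03, adjusted p = 0.033, 0.036, and 0.02). The connexin gene Gja3, Lim2, and Bfsp1 were not called either, at -0.13, -0.10, and -0.31.

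Genes of the lens epithelium fell. Of 11 measured, 7 (63.6%) were down-regulated and none up-regulated, with a median of -0.42, and 3 of the falls held in every fit that left out 1 of the 4 arrays. When the beta-actin ratio was added, 3 were lower. Foxe3, the forkhead factor that maintains the lens epithelium, read 917.9 and 907.2 at 0 hr and 446.8 and 364.2 at 24 hr (log2 fold change -1.18, SE 0.18, adjusted p = 0.0021), after 1131 and 1206 at 12 hr. Cdh1, the epithelial cadherin, read 10484 and 9845 at 0 hr and 6003 and 6519.9 at 24 hr (log2 fold change -0.70, SE 0.09, adjusted p = 0.001), and Dkk3, a secreted glycoprotein of the Dickkopf family, read 10750.5 and 10836 at 0 hr and 7519 and 6082 at 24 hr (log2 fold change -0.67, SE 0.12, adjusted p = 0.0054). The groups do not overlap for any of these. The largest difference was that of the water channel gene Aqp1, which read 4661 and 4416 at 0 hr and 832.7 and 1642 at 24 hr (log2 fold change -1.96, SE 0.43, adjusted p = 0.013), but the 24 hr arrays differ widely and the call was lost without either 0 hr array or 24 hr replicate 1 (adjusted p up to 0.083). Gja1, Pax6, and the amino acid transporter gene Slc38a2 stood at -0.74, -0.41, and -0.42, each lost with some 1 array left out (adjusted p up to 0.086, 0.067, and 0.076). The growth factor receptor gene Pdgfra, at -0.29, Wls, Sfrp1, and Six3 were not called.

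Lens transcription factors were divided. Of 28 measured, 7 (25%) were higher and 6 (21.4%) lower, at a median of 0.084, beside 12.2% and 12.4% of all genes. With the beta-actin ratio in the fit 4 were higher and 5 lower. Gata3, a zinc finger factor of fiber cells, read 438.0 and 318.1 at 0 hr and 990.7 and 908.8 at 24 hr (log2 fold change 1.35, SE 0.20, adjusted p = 0.0022), Mycn read 1460 and 1439 at 0 hr and 2870.2 and 2642 at 24 hr (log2 fold change 0.93, SE 0.08, adjusted p = 0.0002), and Tfap2a, a factor of the epithelium, read 1271 and 1321 at 0 hr and 644.9 and 557.7 at 24 hr (log2 fold change -1.11, SE 0.15, adjusted p = 0.0012). Maf, the factor that drives crystallin genes, read 4834 and 4390.4 at 0 hr and 6602 and 6104 at 24 hr (log2 fold change 0.46) at its brightest probe set, a call lost with any 1 of the 4 arrays left out (adjusted p up to 0.23). Its other 2 probe sets rose by 1.42 and 1.27. Sox2, Nfat5, and Meis2 were lower at -0.58, -0.95, and -0.55, and Mafg and Nfia higher at 0.54 and 0.57, with adjusted p up to 0.08, 0.063, 0.15, 0.0501, and 0.076 when 1 array was left out.

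**Figure D3:**
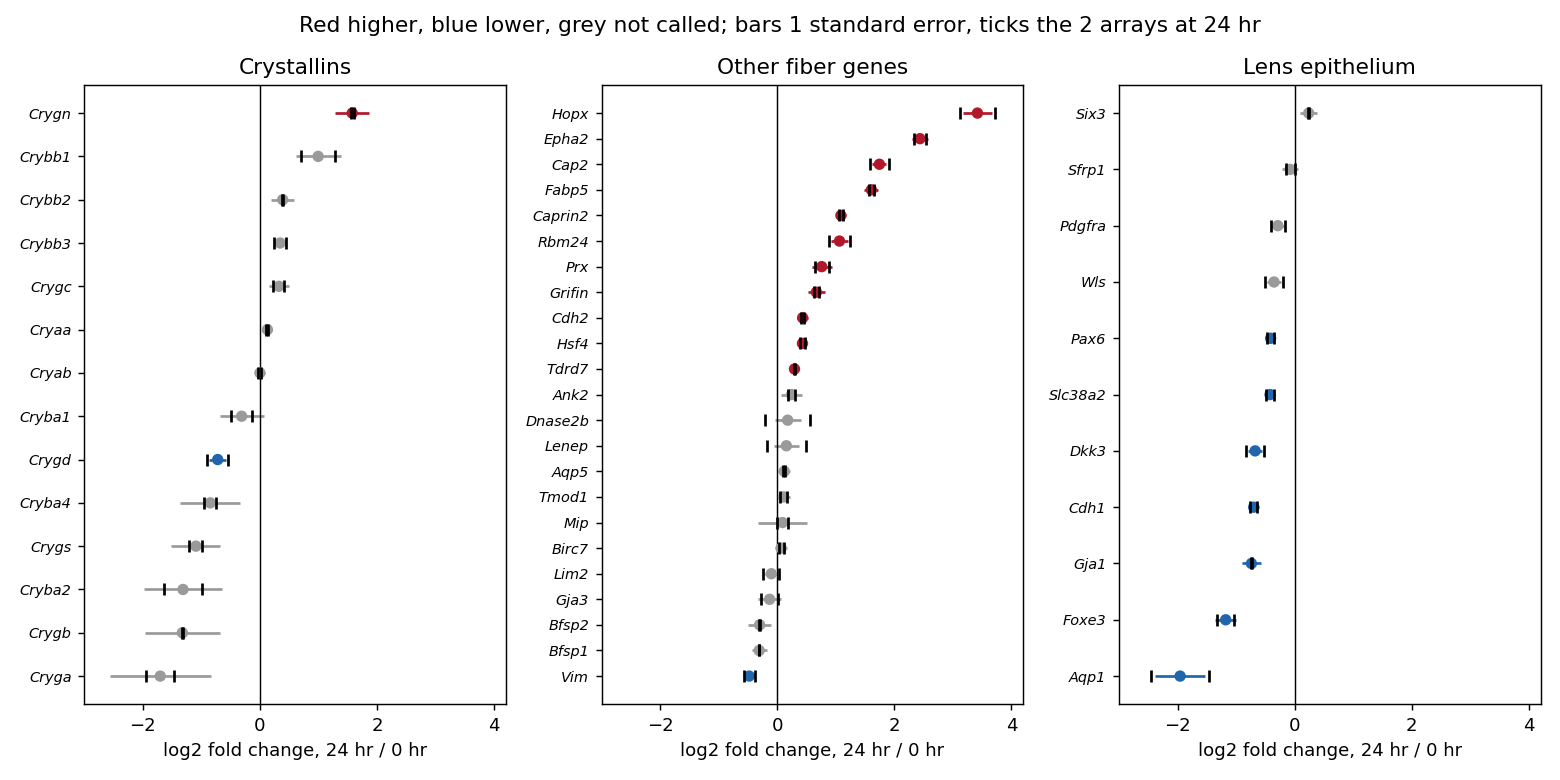
Log2 fold change at 24 hr against 0 hr for 14 crystallin genes, 23 other fiber genes, and 11 genes of lens epithelium, with points for the estimate, bars for 1 standard error, and black ticks for the 2 arrays at 24 hr against the mean at 0 hr. Hopx and Epha2 lie farthest to the right, most epithelial genes lie left of 0, and the alpha-crystallins lie near 0.

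Genes listed for feedback on the MAP kinase pathway were higher at 24 hr where they changed. Of 20 measured, 10 (50%) were up-regulated and none down-regulated, with a median of 0.364, and 6 of the rises held with each of the 4 arrays left out. The Sprouty gene Spry2 read 602.8 and 447.1 at 0 hr and 3510.4 and 2959 at 24 hr (log2 fold change 2.63, SE 0.15, adjusted p = 2.8e-05), Spry4 read 184.7 and 170.9 at 0 hr and 1064 and 959.7 at 24 hr (log2 fold change 2.51, SE 0.23, adjusted p = 0.00021), and Spry1 rose by 1.80. Dusp6, the phosphatase of ERK1 and ERK2, read 673.3 and 479.0 at 0 hr and 2353 and 2636 at 24 hr (log2 fold change 2.13, SE 0.23, adjusted p = 0.00049). All 4 lay clear of the 0 hr arrays. Flrt2, counted among the 10 rises, encodes a partner of FGF receptors and not an inhibitor of the pathway. It rose by 1.40, Spred3 by 1.02, and Dusp8 by 0.81. Spred3 was not called without 0 hr replicate 2 (adjusted p = 0.073).

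Of 16 Ets factor genes, 3 (18.8%) were higher and 2 (12.5%) lower, beside 12.2% and 12.4% of all genes. The FGF-responsive factors Etv4 and Etv5 led: Etv4 read 151.3 and 112.8 at 0 hr and 1309 and 1015 at 24 hr (log2 fold change 3.14, SE 0.31, adjusted p = 0.00028) and Etv5 read 216.6 and 156.3 at 0 hr and 987.3 and 884.4 at 24 hr (log2 fold change 2.34, SE 0.18, adjusted p = 9.2e-05). Elk3 rose by 1.5, and all 3 rises held with each of the 4 arrays left out. Ets1 and Elf1 stood at -0.58 and -0.59, with adjusted p up to 0.11 and 0.082 when 1 array was left out.

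Of 28 immediate early genes, 8 (28.6%) were higher and 1 lower (Ier3, -0.75), with 5 of the rises held. Egr1, a zinc finger factor, read 2528 and 2369 at 0 hr and 4405 and 5109 at 24 hr (log2 fold change 0.95, SE 0.10, adjusted p = 0.00038), down from 7701 and 7586 at 12 hr (log2 difference -0.69, adjusted p = 0.0084). Its corepressor gene Nab2 rose by 1.56, Nr4a1, an orphan nuclear receptor, by 1.95, Jun by 0.94, and Junb by 0.73. Under the beta-actin ratio as a covariate 5 were higher and 2 lower. Of 16 FGF receptor and ligand genes 2 (12.5%) were higher and 1 (6.25%) lower, beside 12.2% and 12.4% of all genes. Fgfr1 rose by 0.77, from 908.7 and 1075 to 1735 and 1633. Fgfr2 read 3548 and 3567 at 0 hr and 2475 and 2181 at 24 hr (log2 fold change -0.61, SE 0.10, adjusted p = 0.0032) at its brightest probe set, while its other 4 were dim and not called. Fgf9, a ligand, rose from a low level, at 1.63.

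Genes of the BMP pathway were more often higher than lower, and the rises included ligands, antagonists, and targets. BMPs are ligands that signal through Smad1, Smad5, and Smad9 and induce the Id and Msx genes. Of 24 genes measured, 9 (37.5%) were up-regulated and 4 (16.7%) down-regulated, with a median of 0.268, and all 9 rises held with each of the 4 arrays left out. Among the ligands, Bmp2 read 814.3 and 861.4 at 0 hr and 2289 and 3954 at 24 hr (log2 fold change 1.84, SE 0.21, adjusted p = 0.00054) and Bmp4 read 28.2 and 32.9 at 0 hr and 132.3 and 134.1 at 24 hr (log2 fold change 2.13, SE 0.33, adjusted p = 0.0024), whereas Bmp7 read 389.6 and 428.3 at 0 hr and 196.2 and 168.6 at 24 hr (log2 fold change -1.17, SE 0.16, adjusted p = 0.0015). The antagonists Nog and Fst rose by 2.82 and 4.31, and the decoy receptor gene Bambi fell by 0.78. The targets Id1, Id2, and Id4 rose by 1.47, 1.56, and 1.61, the Smad gene Smad9 by 1.73, and Msx1, which read 116.4 and 135.0 at 0 hr and 1502 and 1324 at 24 hr, by 3.49. The receptor gene Acvr1 and the antagonist gene Chrd were lower at -0.57 and -0.50, with adjusted p up to 0.14 and 0.15 when 1 array was left out.

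Genes of TGF-beta and activin signaling were mostly lower where they changed. Of 18 measured, 8 (44.4%) were down-regulated and 1 up-regulated, with a median of -0.185, and 5 of the falls held. Beside Inhba, the secreted TGF-beta target Tgfbi read 446.5 and 314.7 at 0 hr and 79.8 and 32.5 at 24 hr (log2 fold change -2.88, SE 0.43, adjusted p = 0.0021), Pmepa1, a target that restrains the pathway, read 1003 and 965.8 at 0 hr and 474.8 and 445.4 at 24 hr (log2 fold change -1.10, SE 0.13, adjusted p = 0.00065), and the ligand gene Tgfb3 read 218.7 and 245.8 at 0 hr and 111.6 and 115.9 at 24 hr (log2 fold change -1.03, SE 0.19, adjusted p = 0.0054). The receptor gene Tgfbr1 changed by -0.58. The ligand Tgfb1 went the other way, at 130.3 and 117.5 at 0 hr and 362.5 and 472.7 at 24 hr (log2 fold change 1.74, SE 0.13, adjusted p = 8.8e-05). Tgfb2, Smad3, and Smad4 stood at -0.46, -0.41, and -0.36, with adjusted p up to 0.078, 0.25, and 0.11 when 1 array was left out.

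**Figure D4:**
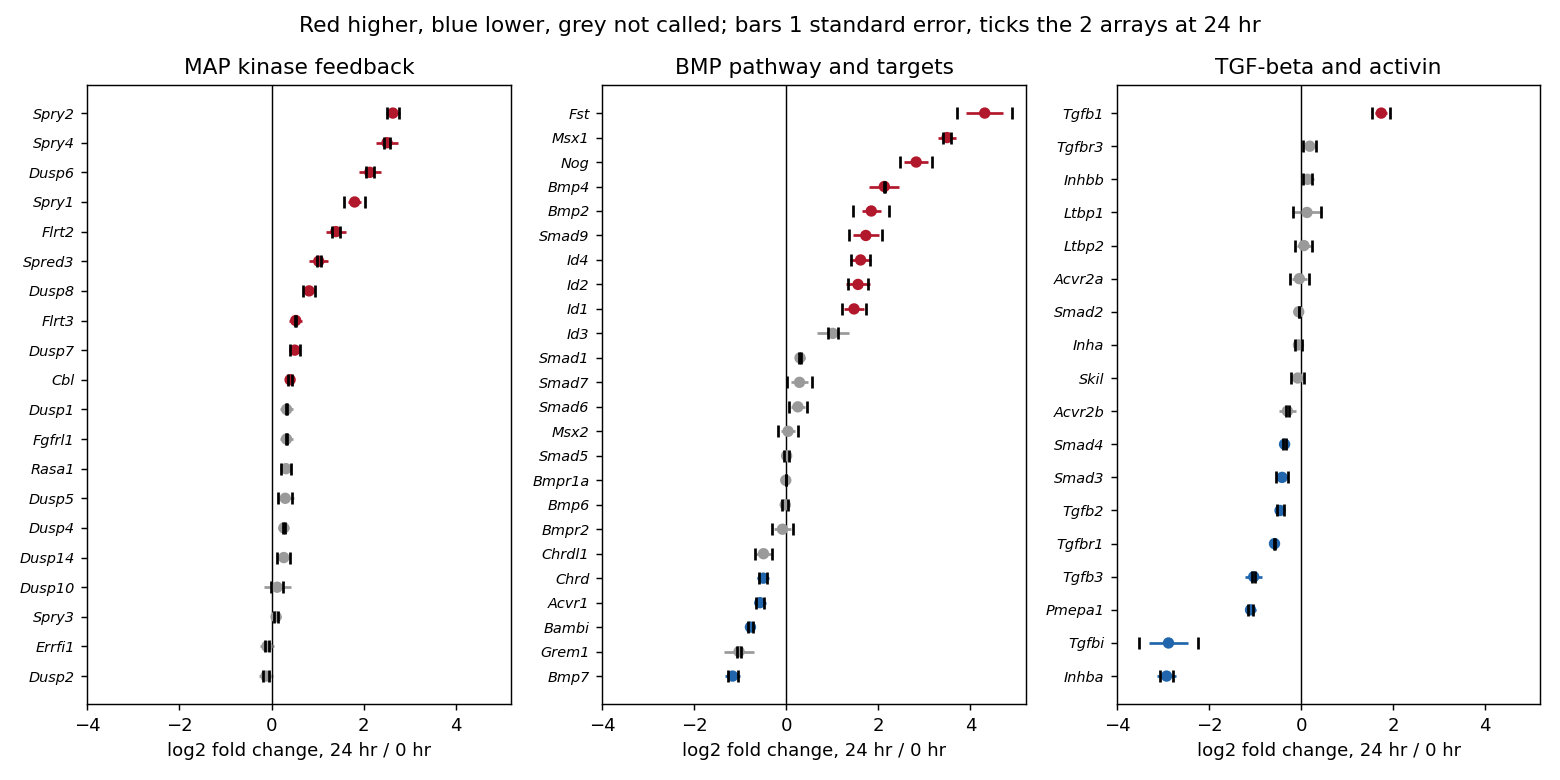
Log2 fold change at 24 hr against 0 hr for 20 genes of MAP kinase feedback, 24 of the BMP pathway, and 18 of TGF-beta and activin signaling, with points for the estimate, bars for 1 standard error, and black ticks for the 2 arrays at 24 hr. Spry2, Spry4, and Dusp6 lead the first panel, Fst and Msx1 the second, and Inhba and Tgfbi lie lowest in the third.

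In the Wnt pathway, 4 of 35 genes were higher (11.4%) and 8 lower (22.9%), with 1 rise and 4 falls held with each of the 4 arrays left out. When the beta-actin ratio was added, 2 were higher and 7 lower. Over all genes, without that ratio, 12.2% were higher and 12.4% lower, so the share of Wnt pathway rises was near that of all genes. The receptor gene Fzd4 read 1179.5 and 1191 at 0 hr and 321.7 and 297.8 at 24 hr (log2 fold change -1.94, SE 0.09, adjusted p = 1.4e-05), with a dim second probe set not called, and Fzd6 and the secreted Frizzled protein gene Sfrp2 fell, with log2 fold changes of -0.72 and -0.98. The ligand gene Wnt7a read 109.0 and 110.2 at 0 hr and 644.3 and 409.1 at 24 hr (log2 fold change 2.23, SE 0.27, adjusted p = 0.00085), and both of its probe sets rose. Axin2, a common target of beta-catenin, changed by 0.67 and was lost with any 1 of the 4 arrays left out (adjusted p up to 0.16).

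Of 22 Notch pathway genes 6 (27.3%) were higher and 1 lower (Maml2, -0.98), and none of these calls held with each of the 4 arrays left out. The ligand Jag1 read 1487 and 1471 at 0 hr and 5522 and 4849 at 24 hr (log2 fold change 1.81, SE 0.36, adjusted p = 0.0084), with adjusted p up to 0.0537 when 1 array was left out, and the target Hey1 read 1390.2 and 1526 at 0 hr and 4139 and 4519 at 24 hr (log2 fold change 1.57, SE 0.42, adjusted p = 0.029), with adjusted p up to 0.14. For both genes the 24 hr arrays lay above the 0 hr arrays. Among 14 genes of the IGF system 3 (21.4%) were higher and 1 (7.14%) lower. Igfbp5 had the largest fall of all named genes, and Igf2 rose by 0.95. Of 14 Eph receptor and ephrin genes 4 (28.6%) were higher and 3 (21.4%) lower, beside 12.2% and 12.4% of all genes. Ephb3 read 457.0 and 436.7 at 0 hr and 198.4 and 152.7 at 24 hr (log2 fold change -1.36, SE 0.15, adjusted p = 0.00044).

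Genes of the G1 to S transition and of DNA replication fell. Of 38 measured, 14 (36.8%) were down-regulated and 1 up-regulated (Cdk4, 0.49), with a median of -0.571, and 7 of the falls held with each of the 4 arrays left out. Without the 2 and 4 hr arrays, and also on the arrays of 0 and 24 hr alone, 27 were lower. The minichromosome maintenance (MCM) genes encode the helicase that opens replication origins. Mcm4 read 1388 and 1374 at 0 hr and 613.6 and 586.3 at 24 hr (log2 fold change -1.20, SE 0.23, adjusted p = 0.0068), Mcm6 read 1468 and 1529 at 0 hr and 715.9 and 680.7 at 24 hr (log2 fold change -1.10, SE 0.19, adjusted p = 0.0045), Mcm5 read 577.0 and 532.4 at 0 hr and 252.8 and 282.3 at 24 hr (log2 fold change -1.05, SE 0.17, adjusted p = 0.0031), and Mcm2 read 1191 and 1213 at 0 hr and 662.9 and 674.4 at 24 hr (log2 fold change -0.85, SE 0.14, adjusted p = 0.0041). Cdt1, which loads this helicase, read 765.4 and 650.1 at 0 hr and 351.8 and 337.4 at 24 hr (log2 fold change -1.03, SE 0.15, adjusted p = 0.0021). The kinase gene Cdk2 and the cyclin gene Ccnd3 fell, with log2 fold changes of -1.14 and -0.85. In each of these the 24 hr arrays lay below both 0 hr arrays. Lig1, Rrm1, Pola1, Prim1, Mcm3, Gmnn, and Chaf1b stood between -0.85 and -0.72, with adjusted p up to 0.096 for Pola1 and 0.18 for Mcm3 when 1 array was left out. With the beta-actin ratio in the fit 7 were lower and 2 higher.

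E2F factors drive many of these genes through sites such as TTTGGCGC, TTTCGCGC, TTTCCCGC, and TTTGCCGC, so the promoters were searched for these letters on both strands, from 250 bases before to 50 bases after the start in RefSeq. The letters stood in 618 of 27457 promoters (2.25%), in 8 of the 13 down-regulated replication genes with a promoter in the table, and in 6 of the 17 listed genes that were not lower. This is a match of letters and does not show a bound site. For 4 of the down-regulated genes 60 bases around the match nearest before the start are shown, a match that ends 2 bases before the start in Mcm2, 0 in Mcm5, 127 in Mcm6, and 164 in Pola1 (build GRCr8, 5′ to 3′ on the strand of the gene, matches on either strand in capitals).
Mcm2, chr4:122918095-122918154, strand minus: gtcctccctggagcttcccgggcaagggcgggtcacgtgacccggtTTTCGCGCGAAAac
Mcm5, chr19:13488753-13488812, strand plus: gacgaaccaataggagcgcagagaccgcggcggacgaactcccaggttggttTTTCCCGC
Mcm6, chr13:42404454-42404513, strand minus: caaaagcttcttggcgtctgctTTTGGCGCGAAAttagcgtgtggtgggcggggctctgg
Pola1, chrX:62342494-62342553, strand minus: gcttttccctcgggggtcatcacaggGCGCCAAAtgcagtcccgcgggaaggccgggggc

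Of 33 genes of G2 and mitosis, 3 (9.09%) were higher and none lower, with a median of 0.211, and of the 3 only Racgap1, which acts in cytokinesis, held with each of the 4 arrays left out (1148 and 1139 at 0 hr and 2207 and 2129 at 24 hr, log2 fold change 0.92, SE 0.13, adjusted p = 0.0017). Without 24 hr replicate 1, 9 were higher, and the summed intensity of the list was 17490.4 and 17804 at 0 hr and 18027 and 25499.8 at 24 hr. Inhibitors of cyclin-dependent kinases moved both ways: of 10 genes with the pocket proteins, 4 (40%) were higher and 3 (30%) lower. Over all genes 12.2% were higher and 12.4% lower, so the share of rises in G2 and mitosis lay below that of all genes. Cdkn1a, which encodes p21, read 749.2 and 926.0 at 0 hr and 1677 and 2204 at 24 hr (log2 fold change 1.21, SE 0.22, adjusted p = 0.005), Cdkn2a rose from a low level by 1.44, and the pocket protein gene Rbl2 by 0.77. Cdkn2b read 60.4 and 64.7 at 0 hr and 366.0 and 190.7 at 24 hr (log2 fold change 2.08, SE 0.45, adjusted p = 0.012), with adjusted p up to 0.076 when 1 array was left out. Cdkn2c, which encodes p18, fell by 0.83, and Cdkn1b, which encodes p27, stood at -0.52, with adjusted p up to 0.22. Under the beta-actin ratio as a covariate 1 was lower in place of 3.

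Ribosome biogenesis genes rose by small amounts. Of 30 measured, 17 (56.7%) were up-regulated and none down-regulated, with a median of 0.389 and a range from -0.05 to 0.917. Of the rises, 7 held with each of the 4 arrays left out, and 16 were called with the beta-actin ratio in the fit. Rrp9, which acts in the processing of ribosomal RNA, read 507.6 and 513.6 at 0 hr and 987.8 and 940.9 at 24 hr (log2 fold change 0.92, SE 0.11, adjusted p = 0.00072), and Nop2, a nucleolar methyltransferase, read 705.3 and 722.2 at 0 hr and 1127 and 1160 at 24 hr (log2 fold change 0.68, SE 0.09, adjusted p = 0.0011). Bop1, Wdr12, Gnl3, Mybbp1a, and Wdr43 rose by 0.51 to 0.65. The sum of the intensities of the 30 genes was 36933 and 35483 at 0 hr and 46055 and 46605 at 24 hr.

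Among 44 genes for neuronal channels, receptors, and vesicles, 8 (18.2%) were higher and 1 lower (Ncam1, -0.97), with a median of 0.197, and 7 of the rises held. Beside Gria2, Scn3b, and Chga these were Neto2, an auxiliary subunit of kainate receptors (98.9 and 96.4 at 0 hr and 695.1 and 433.1 at 24 hr, log2 fold change 2.49), Nrcam at 2.41 at its brightest probe set, the neurofilament gene Nefh at 2.08, and the tubulin gene Tubb3 at 1.13. Nefh read 48.4 and 49.0 at 0 hr and 238.2 and 176.8 at 24 hr, after 90.3 and 86.4 at 12 hr (log2 difference to 12 hr 1.22, adjusted p = 0.0046). The sum over the list was 3164 and 3428 at 0 hr and 14663 and 12733 at 24 hr. It rests largely on Gria2, at 4009 and 4325 at 24 hr, and the brighter probe set of Scn3b, at 5249 and 3688. Of the 44 genes 35 were not called, so the sum does not describe the list as a whole.

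Adhesion genes changed in both directions. Of 22 cadherins and protocadherins 5 (22.7%) were higher and 8 (36.4%) lower, with 4 rises and 5 falls held. Pcdh10, Pcdh17, Cdh15, and Cdh6 rose by 4.50, 2.12, 1.96, and 1.32. Cdh3, placental cadherin, read 378.4 and 464.2 at 0 hr and 97.6 and 98 at 24 hr (log2 fold change -2.10, SE 0.21, adjusted p = 0.00033), and Pcdh18 read 396.2 and 459.4 at 0 hr and 120.6 and 108.9 at 24 hr (log2 fold change -1.90, SE 0.10, adjusted p = 2.2e-05). When the beta-actin ratio was added, 4 were lower in place of 8. Of 14 integrin genes 2 (14.3%) were higher and 2 (14.3%) lower, beside 12.2% and 12.4% of all genes. The alpha-6 subunit gene Itga6, of a laminin receptor, read 1029 and 1027 at 0 hr and 3417 and 3363 at 24 hr (log2 fold change 1.72, SE 0.19, adjusted p = 0.00057). Its 3 dimmer probe sets were not called. Itga5 rose by 0.72, and Itgav and Itgb5 were lower.

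Of 38 genes of basement membrane and matrix 5 (13.2%) were higher and 9 (23.7%) lower, beside 12.2% and 12.4% of all genes. Without the 2 and 4 hr arrays 15 were lower. The lens capsule is the basement membrane on which these cells sit. Nid2, which links laminin and collagen networks, read 94.0 and 88.7 at 0 hr and 455.0 and 349.3 at 24 hr (log2 fold change 2.13, SE 0.25, adjusted p = 0.00073), and Fbln2 rose by 1.61. The lysyl oxidase gene Loxl1 read 1943 and 1911 at 0 hr and 898.7 and 849.5 at 24 hr (log2 fold change -1.14, SE 0.14, adjusted p = 0.00092), and Col5a1 and the laminin gene Lamb2 fell, with log2 fold changes of -1.09 and -0.64. Of 23 matrix proteases and inhibitors 3 (13%) were higher and 3 (13%) lower, beside 12.2% and 12.4% of all genes. Timp3, an inhibitor of matrix proteases, read 2072 and 2096 at 0 hr and 466.7 and 449.9 at 24 hr (log2 fold change -2.19, SE 0.39, adjusted p = 0.0051). The protease gene Adamts1 and the protease inhibitor gene Serpine2 rose by 1.79 and 1.71. The other called members were Mmp13, higher, and Mmp11 and Mmp16, lower. Mmp13 ranged from 1.20 to 2.12 with 1 array left out.

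Actin and contractile genes fell where they changed. Of 25 measured, 7 (28%) were lower and none higher, 4 of them held with each of the 4 arrays left out, and 4 were lower with the beta-actin ratio in the fit. The calponin gene Cnn3 read 6425 and 6640.5 at 0 hr and 4570.2 and 4471 at 24 hr (log2 fold change -0.53, SE 0.08, adjusted p = 0.0028), and the myosin light chain gene Myl9, the transgelin gene Tagln2, and the focal adhesion gene Pxn fell, with log2 fold changes of -0.98, -0.86, and -0.68. Among intermediate filaments, Des read 1345 and 1512 at 0 hr and 434.2 and 511.9 at 24 hr (log2 fold change -1.60, SE 0.20, adjusted p = 0.00093), and Vim read 18379 and 17821 at 0 hr and 12163 and 13857 at 24 hr (log2 fold change -0.48, SE 0.09, adjusted p = 0.0068), the latter with an adjusted p of 0.058 without 0 hr replicate 1.

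Interferon-stimulated genes fell. Of 24 measured, 10 (41.7%) were lower and none higher, with a median of -0.598, and 5 of the falls held with each of the 4 arrays left out. Ifi27 read 1273 and 1068 at 0 hr and 199.4 and 216.9 at 24 hr (log2 fold change -2.49, SE 0.33, adjusted p = 0.0013), Mx2 read 167.8 and 113.1 at 0 hr and 30.6 and 26.5 at 24 hr (log2 fold change -2.27, SE 0.20, adjusted p = 0.00019), and Ifit2 fell by 2.20. The regulators Irf1 and Stat2 fell, with log2 fold changes of -1.08 and -0.76. An interferon response element, searched on both strands as GAAA, any 2 bases, and GAAA again, stood in 3 of the 8 lower genes with a promoter in the table, in 10 of the 11 that were not lower, and in 3.77% of all promoters. In Ifi27 it ends 74 bases before the start, shown in capitals as above.
Ifi27, chr6:128355203-128355262, strand plus: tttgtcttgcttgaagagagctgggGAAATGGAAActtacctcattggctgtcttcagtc

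Of 29 genes of inflammation and chemokines, 3 (10.3%) were lower and 1 higher (Nfkbia, 0.71), beside 12.4% and 12.2% of all genes, and the 3 falls held with each of the 4 arrays left out, while 6 were lower without 24 hr replicate 2. Ccl2 read 252.0 and 153.1 at 0 hr and 24.1 and 29.5 at 24 hr, Cxcl12 read 156.9 and 203.8 at 0 hr and 31.6 and 47.9 at 24 hr (log2 fold change -2.20, SE 0.26, adjusted p = 0.00066), and Cx3cl1 fell by 1.16. Ccl2 lay far above its 0 hr level on the 2 and 4 hr arrays, as the plot of levels by hour shows.

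Among 28 genes of the amino acid stress response that ATF4 controls, 7 (25%) were lower and 3 (10.7%) higher. Over all genes 12.4% were lower and 12.2% higher, so the share of rises lay below that of all genes. Asns, asparagine synthetase, read 1374 and 1184 at 0 hr and 364.7 and 299.5 at 24 hr (log2 fold change -1.95, SE 0.20, adjusted p = 0.00034), after 1829.8 and 1895 at 12 hr (log2 difference -2.49, adjusted p = 0.00099). The cystine transporter gene Slc7a11 read 1333 and 1606 at 0 hr and 282.3 and 544.5 at 24 hr (log2 fold change -1.90, SE 0.28, adjusted p = 0.0021), and Phgdh, the first enzyme of serine synthesis, fell by 1.10. The transporter genes Slc7a5 and Slc1a4 rose instead, by 1.65 and 1.39. Against 12 hr, 9 of the 28 were lower and 1 higher, where 2.91% of all genes were lower. Of 26 antioxidant genes 2 (7.69%) were lower and none higher, shares below those of all genes. The 2 were Selenop and Nqo1, a quinone reductase (3397 and 3453 at 0 hr and 1186 and 1257 at 24 hr, log2 fold change -1.49, SE 0.21, adjusted p = 0.0015). With the beta-actin ratio in the fit 5 were lower.

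Sodium pump and water channel genes changed by subunit. Of 12 measured, 4 (33.3%) were higher and 2 lower, and the 4 rises held. Atp1b1, a beta subunit of the pump, read 651.9 and 664.1 at 0 hr and 5124 and 2884 at 24 hr (log2 fold change 2.55, SE 0.27, adjusted p = 0.0004), and Atp1b2 read 123.1 and 126.9 at 0 hr and 429.1 and 343.1 at 24 hr (log2 fold change 1.62, SE 0.16, adjusted p = 0.00029), while Atp1b3 stood at -0.33 (adjusted p up to 0.27 with 1 array left out). The water channel genes Aqp8 and Aqp11 rose from low levels by 1.63 and 1.03.

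Of 27 genes of glycolysis and the hypoxia response 4 (14.8%) were higher and 3 (11.1%) lower, beside 12.2% and 12.4% of all genes. With the beta-actin ratio in the fit 2 were higher and 5 lower. Without the 2 and 4 hr arrays 8 were higher and 5 lower. The phosphofructokinase genes diverged, with Pfkp at 812.4 and 753.3 at 0 hr and 2201 and 1946 at 24 hr (log2 fold change 1.40, SE 0.11, adjusted p = 0.0001) and Pfkm at a log2 fold change of -0.61, as did Ankrd37, a hypoxia target that rose by 1.83, and Hif1a, which read 11014 and 10931 at 0 hr and 6270.3 and 6243 at 24 hr (log2 fold change -0.81). Of 24 genes of cholesterol and fatty acid synthesis 3 (12.5%) were higher, none of which held with each of the 4 arrays left out, and 16 were higher with the beta-actin ratio in the fit and 10 without the 2 and 4 hr arrays. Of 17 clock genes 6 (35.3%) were lower and 2 (11.8%) higher, beside 12.4% and 12.2% of all genes. Tef, an output factor of the clock, read 749.9 and 728.2 at 0 hr and 437.3 and 442.0 at 24 hr (log2 fold change -0.75, SE 0.09, adjusted p = 0.00083) after 300.7 and 274.9 at 12 hr, and Bhlhe40, a repressor in the clock, fell by 1.17. Under the beta-actin ratio as a covariate 10 were lower and none higher.

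In the remaining lists, shares are set beside 12.2% of all genes higher and 12.4% lower. Of 11 genes of the EGF receptor family 2 (18.2%) were higher (Hbegf, 0.76 and Tgfa, 0.69) and 1 (9.09%) lower (Erbb2, -0.49). Of 17 keratin and other intermediate filament genes 2 (11.8%) were higher (Krt12, 4.76 and Synm, 1.02) and 3 (17.6%) lower (Des, -1.60, Nes, -0.52, Vim, -0.48). With the beta-actin ratio in the fit 1 was higher and 5 lower. Of 19 genes for chaperones and other protein quality control of the endoplasmic reticulum 2 (10.5%) were higher (Hyou1, 0.91 and Calr, 0.41). Another 2 (10.5%) were lower (Herpud1, -1.10 and Sel1l, -0.63), neither of them a chaperone. Of 23 autophagy genes 1 (4.35%) was higher (Atg5, 0.31) and 3 (13%) lower (Ulk1, -0.71, Sqstm1, -0.65, Pink1, -0.52). Of 10 genes of epithelial-mesenchymal transition 2 (20%) were higher (Snai1, 1.10 and Cdh2, 0.43) and 2 (20%) lower (Tgfbi, -2.88 and Vim, -0.48). Values beside gene names in parentheses are log2 fold changes. Of the genes in these 5 lists Krt12, Des, Hyou1, Ulk1, and Tgfbi held with each of the 4 arrays left out. Of 29 genes that the study names, 5 (17.2%) were higher and 8 (27.6%) lower. The study chose them on these samples, so they are no independent evidence of a direction.

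**Figure D5:**
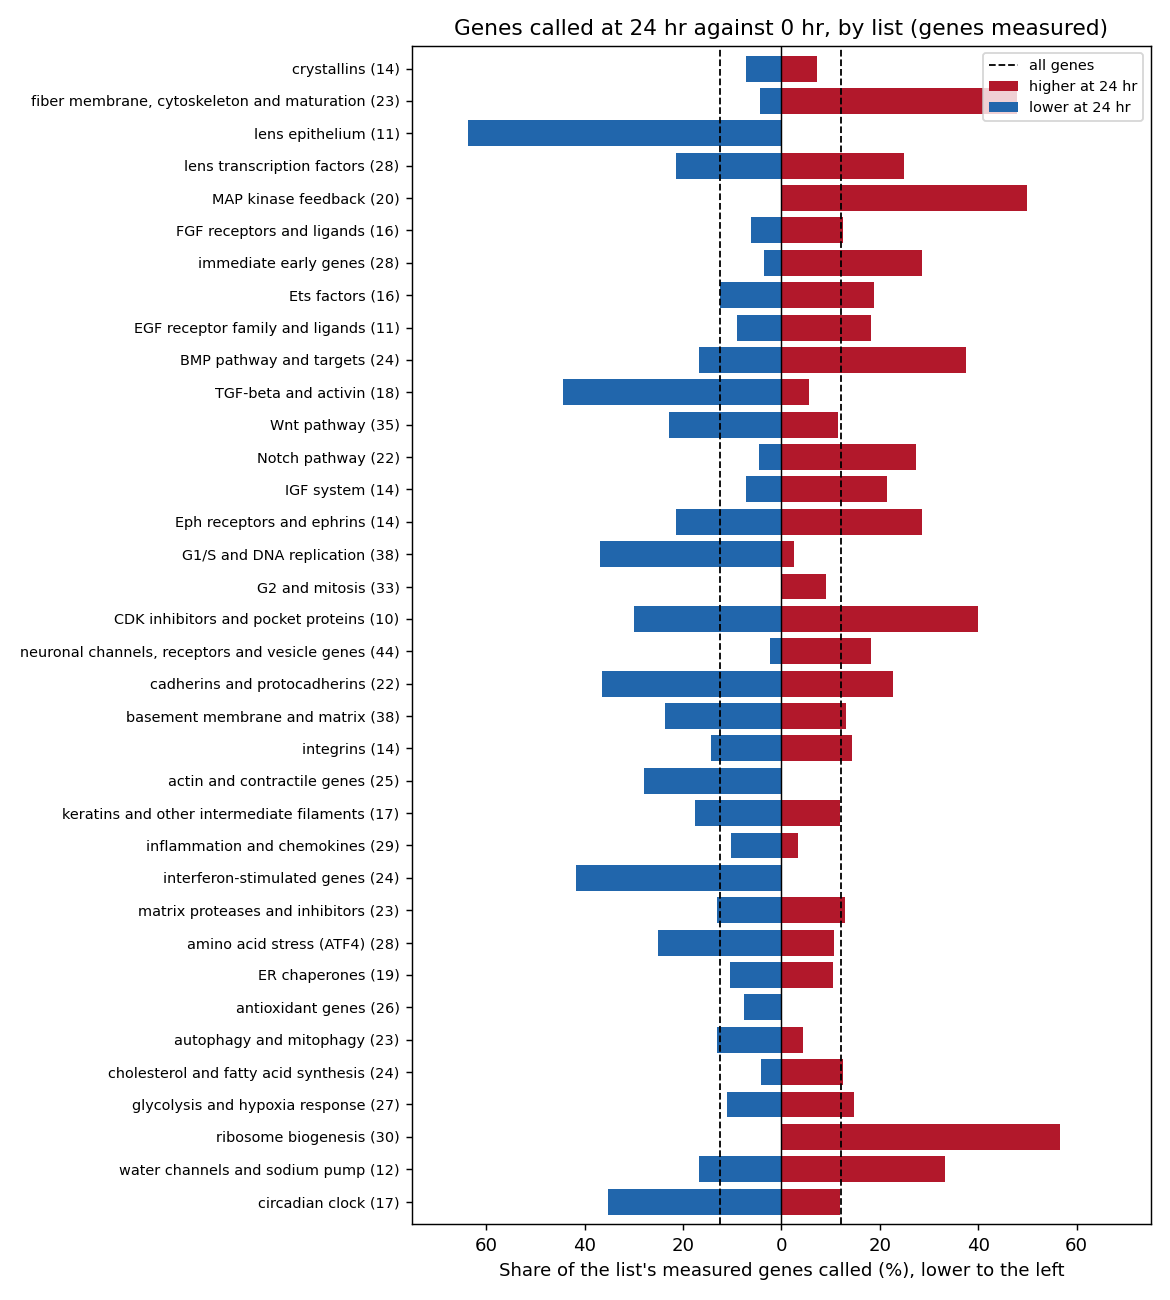
Share of the measured genes of each list that were higher (red, to the right) or lower (blue, to the left) at 24 hr against 0 hr, in percent, with the number of genes measured in parentheses and dashed lines for all genes (12.2% higher and 12.4% lower). Ribosome biogenesis (56.7%), MAP kinase feedback (50%), and fiber genes (47.8%) extend farthest to the right, and lens epithelium (63.6%) farthest to the left. The lists were chosen with earlier results of these data known, so the shares are descriptive.

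Genes that mark other cells of the eye gave a check on what the explants held. Of 12 endothelial markers measured 5 (41.7%) were lower and none higher, though not all of these calls held with each of the 4 arrays left out. The summed intensity of the 12 went from 2249 and 2809.9 at 0 hr to 1674 and 1521 at 24 hr. Much of this drop came from 1 gene, Tek. The angiopoietin receptor gene Tek read 806.2 and 1053 at 0 hr and 335.4 and 285.1 at 24 hr (log2 fold change -1.57, SE 0.18, adjusted p = 0.00056) and Vwf read 146.7 and 147.1 at 0 hr and 82.1 and 79.5 at 24 hr (log2 fold change -0.86, SE 0.14, adjusted p = 0.0027), whereas the defining endothelial gene Pecam1 was near the bottom of the range at all times (23.4 and 29.9 at 0 hr and 20.9 and 17.8 at 24 hr). Of 13 mesenchyme and pericyte markers 2 (15.4%, beside 12.4% of all genes) were lower, Des and Cspg4. The sum of the 13 markers went from 4357 and 4320 to 3281 and 2804, and much of this drop came from Des. When the beta-actin ratio was added, 2 endothelial markers were lower and 2 higher, and 4 mesenchyme markers were lower and 1 higher. Without the 2 and 4 hr arrays 8 endothelial and 7 mesenchyme markers were lower. The part of these cells in the falls described above was not tested. Of 16 macrophage and 9 pigment epithelium markers none was called by limma, nor had any an unadjusted p under 0.05, and their sums were 958.9 and 787.3 at 0 hr against 974.6 and 990.5 at 24 hr, and 352.0 and 373.7 against 362.5 and 383.0. Of 9 retina markers Rlbp1 was higher (45.5 and 48.2 at 0 hr and 78.1 and 84.2 at 24 hr), and of 6 erythroid markers Epor was (78.4 and 80.4 at 0 hr and 120.8 and 120.7 at 24 hr).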

How the data were processed

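Total RNA from lens explants was amplified and hybridised to 10 Affymetrix rat arrays, 2 at each of 5 time points. The authors deposited RMA intensities on a linear scale, 1 value per probe set and array. Depth does not apply to arrays, and 2 arrays per time point limit the precision. The 57 array control probe sets were left out and values were taken to log2. In limma 3.58.1 under R 4.3.3, 1 mean per time point was fitted over all 10 arrays, with 5 residual and 3.69 prior degrees of freedom, and 24 hr was compared with 0 hr and with 12 hr over 31042 probe sets, with p adjusted by Benjamini and Hochberg and called under 0.05. The code was tested on simulated data.

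Of these probe sets 20826 had 1 gene symbol (14217 genes), 436 had several, and 9780 had none and are unnamed here. A gene in a list is given by its brightest probe set. Named genes were the 15 largest rises and 15 largest falls at 24 hr against 0 hr, the 5 of each against 12 hr, all with arrays that did not overlap, and members of 44 gene lists. The members and lists were chosen with earlier results of these data known. Alternatives changed the arrays in the fit, the normalization, the variance prior, the filter on dim probe sets, the test, and the covariates. Array run was not fitted, because it cannot be told apart from time between 0 and 24 hr. The array type named in the array names (a rat 230 array) differs from that in the methods, and the labels name another RNA kit than the methods.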

Additional observations from a re-analysis of the deposited data

Results flagged for a closer look

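For 8 of the 30 leading genes the change from 0 hr differed between 24 and 12 hr by limma, given here as the log2 difference of 24 hr minus 12 hr. Scn3b was higher at 24 than at 12 hr, by 2.01. Tent5a, higher than at 0 hr at both times, differed by -0.78. The falls of Cdhr1 and Tmem176b went on, with differences of -0.85 and -1.17. Ifi27l2b differed by -1.36, Slc7a3 by -2.82, Ccl2 by -2.12, and Mx1 by -3.83. With 2 arrays per time point no single array could be tested as standing apart.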

How the results depend on the processing

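No gene called at 24 hr among those listed or named changed direction under the alternatives checked for single genes. The mean of all probe sets of a gene was run for counts of listed genes and not checked for direction. Against 0 hr, an unadjusted p from limma called 4752 rises and 5124 falls, and the methods' analysis of variance on the 4 arrays alone called 2 and 1 after Benjamini-Hochberg adjustment. Leaving out 1 array in turn left 1369 to 1979 rises and 1628 to 2532 falls, with 1369 and 1660 when 0 hr replicate 1 was left out, 1507 and 1628 for its partner 0 hr replicate 2, and 1708 and 1693 for 24 hr replicate 2. Against 12 hr, rises and falls were 1487 and 1451 without the 2 and 4 hr arrays, 2766 and 2765 at an unadjusted p from limma, 1433 and 1431 with array quality weights, 2385 and 2165 by the methods' analysis of variance unadjusted, and 0 and 0 after adjustment. Leaving out 1 array gave 93 to 284 rises and 87 to 307 falls, lowest without 12 hr replicate 2. Of 280 listed genes called, leaving out 1 array left 163 to 217, with 163 for 0 hr replicate 1, 168 for 0 hr replicate 2, and 183 for 24 hr replicate 2. Such fits hold fewer arrays and assume that the lone array varies like the other time points. The cause of the other shifts was not tested. The other alternatives kept these counts within 1.5 times, at 273 to 390 listed genes, some of them chosen after seeing the data. Same-numbered arrays deviated together between 2 and 4 hr (correlation 0.327) but not between 0 and 24 hr (-0.040) or 12 and 24 hr (-0.147), so the numbers were not taken to pair the samples. With the replicate block 2716 rises and 3220 falls were called against 0 hr, and 588 and 586 against 12 hr.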
